A study of Rattus norvegicus with 48 samples.

Results

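Levels of 7 genes of dopamine and adenosine signalling were followed on whole-transcript arrays of 4 rat brain areas: the dopamine receptors Drd1 and Drd2, the adenosine receptors Adora2a and Adora1, and the signalling proteins Ppp1r1b, Rgs9 and Pde10a. Each gene was taken by its symbol, through the probe set with the highest mean over the arrays where a symbol had several; all 7 had exactly 1 probe set, of 27342 on the array and of 14324 distinct symbols. The genes other than Adora1 are textbook markers of the striatum, and Adora1 is expressed widely in the brain.

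All animals were F3 males of the outbred Sprague-Dawley strain. The great-grandmothers (F0) of the Vin lineage were injected while pregnant, on embryonic days 8 to 14, with the anti-androgenic fungicide vinclozolin at 100 mg/kg/day, and those of the Con lineage with DMSO, its vehicle. Stressed rats (St) were restrained for 6 h a day on 21 days, postnatal days 23 to 43, and unstressed rats (NSt) were not. All were sampled at postnatal day 120 as 2 mm punches of the basolateral amygdala (BLA), motor cortex (CRTX) and hippocampal fields CA1 and CA3. A Con and a Vin rat were caged together as a dyad, and every array held RNA pooled from 4 rats. The Con and the Vin pool of a replicate number came from the same 4 dyads, called a dyad group: groups 1 to 3 are the unstressed replicates 1 to 3, and groups 4 to 6 the stressed replicates 1 to 3. Each combination of stress and lineage, such as NSt-Con, thus had 3 arrays per area, and the same pools supplied all areas. NSt-Vin replicate 2 of CRTX and St-Con replicate 3 of CA1 equalled the mean of the other arrays of their group, so 46 of 48 arrays were used and those groups have n = 2. Replicate pools held different animals; p-values reflect how much pools varied, and the number of arrays limits the precision.

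Medium spiny neurons, the projection neurons of the striatum, divide into cells that carry Drd1, whose receptor raises cyclic AMP, and cells that carry Drd2, whose receptor lowers it. The receptor encoded by Adora2a sits on the Drd2 cells and raises cyclic AMP there, while the receptor encoded by Adora1 lowers it and acts in neurons of cortex and hippocampus. Ppp1r1b encodes a phosphatase inhibitor switched by cyclic AMP signalling, Rgs9 a protein that ends G protein signals, and Pde10a a phosphodiesterase that degrades cyclic nucleotides. The amygdala lies beneath and beside the striatum in the rat brain.

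The stretches of DNA just before the gene starts are shown because 6 of the 7 genes moved together between arrays and Adora1 hardly did. RefSeq (assembly GRCr8) gave such a stretch for 5 of the 7 genes, and those for Adora2a and Ppp1r1b were not used here. Each is the 250 bases before the start, 5′ to 3′ on the gene's strand: Drd1 at chr17:10546354-10546603 (plus), Drd2 at chr8:58605153-58605402 (plus), Adora1 at chr13:48246832-48247081 (minus), Rgs9 at chr10:94770388-94770637 (minus) and the first of 2 Pde10a starts at chr1:54765669-54765918 (minus). Capitals mark matches, on either strand, to the GC box GGGCGG, the TATA box TATAAA, the cyclic AMP response element TGACGTCA, the TGACG that begins it, and the E-box CAGCTG.
Drd1: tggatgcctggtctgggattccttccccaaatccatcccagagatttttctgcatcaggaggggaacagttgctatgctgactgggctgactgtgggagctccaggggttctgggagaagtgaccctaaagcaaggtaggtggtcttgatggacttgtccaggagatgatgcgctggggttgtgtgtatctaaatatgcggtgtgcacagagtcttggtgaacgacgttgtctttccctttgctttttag
Drd2: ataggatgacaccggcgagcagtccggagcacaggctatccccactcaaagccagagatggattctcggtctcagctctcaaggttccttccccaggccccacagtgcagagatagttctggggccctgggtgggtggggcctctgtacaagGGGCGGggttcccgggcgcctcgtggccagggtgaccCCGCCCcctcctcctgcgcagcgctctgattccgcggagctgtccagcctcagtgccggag
Adora1: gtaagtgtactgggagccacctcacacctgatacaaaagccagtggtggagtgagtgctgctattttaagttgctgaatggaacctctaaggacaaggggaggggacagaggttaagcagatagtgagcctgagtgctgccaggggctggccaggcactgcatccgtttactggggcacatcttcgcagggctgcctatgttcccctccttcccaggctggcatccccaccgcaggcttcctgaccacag
Rgs9: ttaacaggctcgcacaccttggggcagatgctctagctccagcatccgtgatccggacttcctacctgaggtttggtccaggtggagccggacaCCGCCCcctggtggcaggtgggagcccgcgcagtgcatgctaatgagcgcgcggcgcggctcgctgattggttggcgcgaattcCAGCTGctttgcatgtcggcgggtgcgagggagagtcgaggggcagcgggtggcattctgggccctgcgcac
Pde10a: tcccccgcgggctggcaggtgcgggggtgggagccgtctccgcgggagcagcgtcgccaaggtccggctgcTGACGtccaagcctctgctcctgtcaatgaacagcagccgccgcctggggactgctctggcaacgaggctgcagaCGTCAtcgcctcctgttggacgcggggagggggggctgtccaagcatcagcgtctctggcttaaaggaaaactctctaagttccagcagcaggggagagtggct
Drd2 had 2 GC boxes and Rgs9 had 1 together with 1 E-box. The first Pde10a stretch had 2 copies of TGACG, and the second 1 GC box. None of the 5 motifs occurred in the Drd1 and Adora1 windows. Over all 33469 such windows, GGGCGG was in 30.5%, TATAAA in 12.9%, TGACGTCA in 1.59%, TGACG in 18.2% and CAGCTG in 11.97%. GC content was 65.6% for Rgs9 and 66% for both Drd2 and Pde10a, against 51.2% for Drd1 and 56.8% for Adora1. None of the 5 motifs was in all windows of the genes that moved together.

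Values are log2 signals, so a difference of 1 is a 2-fold difference; levels of different genes are not compared, since each has its own probes. Array medians lay between 7.08 and 7.13 in BLA, 6.76 and 6.81 in CRTX, 7.11 and 7.17 in CA1 and 7.34 and 7.39 in CA3, and the median of all probe sets differed between areas by up to 0.50. Area differences were therefore also fitted after quantile normalization over all arrays, and a part of these values is given. RNA preparation and scan days went largely with area: BLA and part of CRTX shared a scan day, and neither shared one with CA1 or CA3, so for the last 2 areas day and area cannot be told apart. The CA1 marker Wfs1 had a mean of 9.86 in the arrays labelled CA1 and 10.3 in those labelled CA3, and all 4 CA1 markers examined were lower in the arrays labelled CA1 than in those labelled CA3, as were all 4 CA3 markers.

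Drd1, Drd2, Adora2a, Ppp1r1b, Rgs9 and Pde10a had their highest mean level in the basolateral amygdala, and Adora1 its lowest there (plot of the genes by brain area). BLA also had by far the widest spread for these 6 genes. Against CRTX all 7 genes passed the limma test, 6 higher and Adora1 lower, where 79.6% of all probe sets passed, 62.4% higher and 17.2% lower. After quantile normalization BLA exceeded CRTX by 1.48 for Drd1, 1.99 for Drd2, 2.02 for Rgs9, 1.13 for Ppp1r1b and 0.73 for Pde10a. Each of these passed limma there as well.

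**Figure D1:**
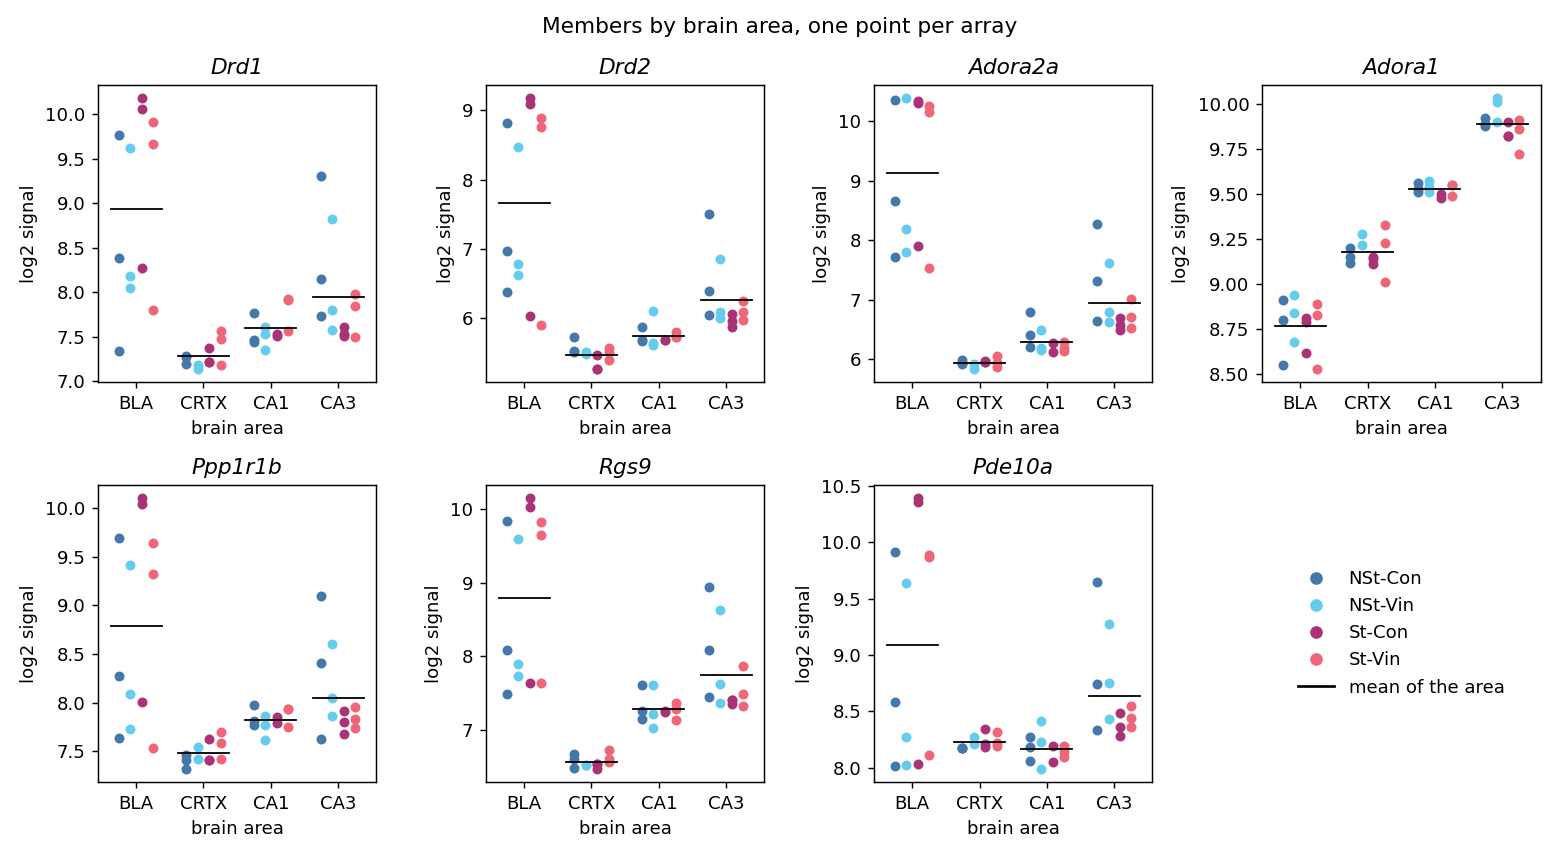
Log2 signal of each gene (vertical axes, own scale per gene) in the 4 brain areas; each point is 1 array, coloured by condition, and the line is the mean of the area. In BLA the points of 6 genes split into a high and a low set that both hold every condition, whereas Adora1 climbs from BLA to CA3 with little overlap.

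Adora2a, the receptor of the Drd2-bearing striatal cells, differed most between areas. Its level was 9.13 ± 1.25 (SD, n = 12) in BLA, 6.94 ± 0.54 (n = 12) in CA3, 6.30 ± 0.20 (n = 11) in CA1 and 5.94 ± 0.055 (n = 11) in CRTX. BLA ranged from 7.54 to 10.4 with a median of 9.41, and CRTX from 5.84 to 6.05, so these 2 areas did not overlap. The difference between BLA and CRTX was 3.20 ± 0.30 (SE), a 9.20-fold difference in geometric means (adjusted p = 1.13e-11), and 3.03 after quantile normalization. Since the Con and Vin pools of a dyad group were alike in BLA, as described further on, each area difference was also tested over the 6 dyad groups with an exact two-sided sign-flip test, whose smallest possible p is 0.03125; 42 such tests were adjusted together. Adora2a was higher in BLA than in CRTX, CA1 and CA3 in 6 of 6 dyad groups each (exact adjusted p = 0.0438), by 0.30 to 3.72 against CA3. Of the 42 tests 30 passed, all at the smallest possible p, and tests among CRTX, CA1 and CA3 are among them. The adjusted p of 0.0438 rests on that number, so whether a gene passes depends on which tests are adjusted together. The BLA tests were not adjusted apart.

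The dopamine receptors differed less between areas than Adora2a. Drd2 had 7.66 ± 1.31 (SD, n = 12) in BLA, from 5.90 to 9.17 with a median of 7.72. It had 6.26 ± 0.47 (n = 12) in CA3, 5.75 ± 0.14 (n = 11) in CA1 and 5.48 ± 0.13 (n = 11) in CRTX. Its lowest BLA arrays overlapped CA3 and CA1 but, as deposited, lay above all CRTX arrays, where the highest was 5.73. Array medians, 7.08 to 7.13 in BLA and 6.76 to 6.805 in CRTX, lay further apart than 5.90 and 5.73. The lack of overlap with CRTX therefore depends on the scaling. BLA exceeded CRTX by 2.18 ± 0.31 (SE; adjusted p = 9.09e-08), in 6 of 6 dyad groups. Drd1 had 8.94 ± 1.02 (n = 12) in BLA, from 7.34 to 10.2 with a median of 9.01, and 7.95 ± 0.57 (n = 12) in CA3. It had 7.60 ± 0.19 (n = 11) in CA1 and 7.28 ± 0.14 (n = 11) in CRTX. BLA exceeded CRTX by 1.67 ± 0.25 (SE; adjusted p = 1.62e-07), again in 6 of 6 dyad groups. Against CA3 the 2 receptors were higher in BLA in only 4 of 6 dyad groups each, by a mean of 1.40 for Drd2 and 0.99 for Drd1. These passed limma (adjusted p = 6.6e-05 and 0.000253) and missed the exact test (adjusted p = 0.248 and 0.219). The counts are of deposited values, with array medians of 7.08 to 7.13 in BLA and 7.34 to 7.39 in CA3. The lowest Drd2 difference, -0.19, was smaller in size than that gap, so its count depends on the scaling. With array medians set equal, the limma differences were 1.66 for Drd2 and 1.25 for Drd1.

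The 3 signalling proteins also had their highest mean in BLA, Rgs9 with a difference from CRTX close to that of Drd2, and Ppp1r1b and Pde10a with smaller ones. Rgs9 had 8.80 ± 1.12 (SD, n = 12) in BLA, 7.75 ± 0.54 (n = 12) in CA3, 7.28 ± 0.18 (n = 11) in CA1 and 6.56 ± 0.080 (n = 11) in CRTX. It exceeded CRTX in BLA by 2.24 ± 0.27 (SE; adjusted p = 3.16e-09), in 6 of 6 dyad groups. Ppp1r1b had 8.79 ± 0.99 (n = 12) in BLA, 8.05 ± 0.44 (n = 12) in CA3, 7.82 ± 0.10 (n = 11) in CA1 and 7.48 ± 0.12 (n = 11) in CRTX. The difference between BLA and CRTX was 1.31 ± 0.23 (SE; adjusted p = 4.6e-06). Pde10a had the smallest one, 0.87 ± 0.23 (SE; adjusted p = 9e-04), with 9.09 ± 0.99 (n = 12) in BLA against 8.22 ± 0.061 (n = 11) in CRTX, 8.16 ± 0.12 (n = 11) in CA1 and 8.64 ± 0.42 (n = 12) in CA3. Pde10a was higher in BLA than in CRTX in 4 of 6 dyad groups and lower in 2, and the exact test gave an adjusted p of 0.15. Against CA1, Ppp1r1b and Pde10a were each higher in 4 of 6 dyad groups (exact adjusted p = 0.15). Against CA3, Rgs9, Ppp1r1b and Pde10a were each higher in BLA in 3 of 6 dyad groups and lower in 3. The exact adjusted p was 0.2625 for Rgs9 and Ppp1r1b and 0.406 for Pde10a. These counts too are of deposited values and hold for that scaling. In dyad group 6 the means in BLA and CA3 were 7.63 and 7.64 for Rgs9, and 7.77 and 7.93 for Ppp1r1b. Over the arrays of the shared scan day and only the unstressed groups, the BLA excess over CRTX was 1.00 for Ppp1r1b (limma adjusted p = 0.0611) and 0.52 for Pde10a (0.286), while the other 5 genes passed.

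Adora1 ran the other way. Its level was 8.77 ± 0.14 (SD, n = 12) in BLA, 9.18 ± 0.088 (n = 11) in CRTX, 9.53 ± 0.030 (n = 11) in CA1 and 9.89 ± 0.083 (n = 12) in CA3, with no overlap between neighbouring areas in that order. It was lower in BLA than in CA3 by 1.12 ± 0.039 (SE), a 2.18-fold difference (limma adjusted p = 1.55e-23), in 6 of 6 dyad groups. After quantile normalization this difference was -0.68 (adjusted p = 1.5e-18). The step from CRTX to CA1 rested on the scaling, being -0.34 ± 0.041 as deposited, -0.070 after quantile normalization (adjusted p = 0.0887) and 0.012 with array medians set equal (0.818).

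Against CA1 all 7 genes passed limma (6 higher in BLA, Adora1 lower), where 77.0% of all probe sets passed, 20.9% higher and 56.1% lower. Against CA3, 6 passed (5 higher, Adora1 lower), where 87.7% of all probe sets passed, 8.64% higher and 79.0% lower. Pde10a was 0.45 ± 0.22 (SE) above CA3 in BLA with an adjusted p of 0.0566, and 0.89 after quantile normalization (0.000852). In the exact test over dyad groups 6 genes passed against CRTX, 5 against CA1 and 2, Adora2a and Adora1, against CA3. Between the other areas it passed 5 genes for CRTX and CA1, 7 for CRTX and CA3, and 5 for CA1 and CA3. The exact test was run only on the deposited values of the 7 genes. Its counts therefore hold for that scaling only and have no share of all probe sets beside them. By limma 92.4% of all probe sets were lower in CRTX than in CA3. The exact test counts are therefore not read as particular to the 7 genes.

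Among the other 3 areas the differences were smaller and depended on the scaling. CRTX was below CA3 for 6 genes (all but Pde10a), where 95.1% of all probe sets passed, 92.4% lower and 2.71% higher. After quantile normalization 1 of them, Adora1, still passed, and the Ppp1r1b difference turned from -0.57 to 0.016. CRTX was below CA1 for Adora1 and Rgs9 (88.6% of all probe sets passed, 84.1% lower and 4.51% higher), and 0 genes passed after quantile normalization. CA1 was below CA3 for Adora1 and Adora2a (80.2% of all probe sets passed, 71.6% lower and 8.67% higher), and only Adora1 passed after quantile normalization, at which Adora2a differed by -0.46 (adjusted p = 0.209). The fit shares one spread over all areas, and that of BLA is wide; with only the 2 areas compared in the fit, 6 genes passed between CRTX and CA1 and 6 between CA1 and CA3.

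Other genes of the same pathways, from lists chosen with earlier results of these data known, were read beside them. Of 17 medium spiny neuron markers with a probe set, 14 passed higher and 1 lower in BLA than in CRTX, with a median difference of 1.12 (all probe sets 0.18). Against CA1 15 passed higher and 0 lower (median 0.79, all probe sets -0.13), and against CA3 11 higher and 1 lower (median 0.50, all probe sets -0.32). The other dopamine genes, such as those for monoamine breakdown, had 8 of 9 higher and 1 lower against CRTX (median 0.47), and 1 higher and 6 lower against CA3 (median -0.22). The other adenosine genes had 5 of 8 higher and 2 lower against CRTX (median 0.52), and 1 higher and 7 lower against CA3 (median -0.43). Of 15 partners in striatal cyclic AMP signalling, 8 passed higher and 2 lower against CRTX (median 0.20), and 4 higher and 6 lower against CA3 (median -0.032). All probe sets shifted the same way, with 62.4% higher against CRTX and 79.0% lower against CA3, so the counts of these 3 lists are not read as particular to them.

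Within the basolateral amygdala the 6 striatal markers followed the dyad group, and each stress condition held high and low groups (plot of the amygdala by dyad group). For each of Drd1, Drd2, Adora2a, Ppp1r1b, Rgs9 and Pde10a, the 6 highest arrays were the Con and Vin pools of dyad groups 1, 4 and 5, 1 unstressed and 2 stressed groups. The gap from the lowest of these to the next array was between 1.05 and 1.52, that is, larger than the largest difference between the Con and Vin pools of one dyad group (0.41 to 0.84 depending on the gene). RNA of a whole punch was measured, so fewer cells of a type and less RNA per cell cannot be told apart.

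**Figure D2:**
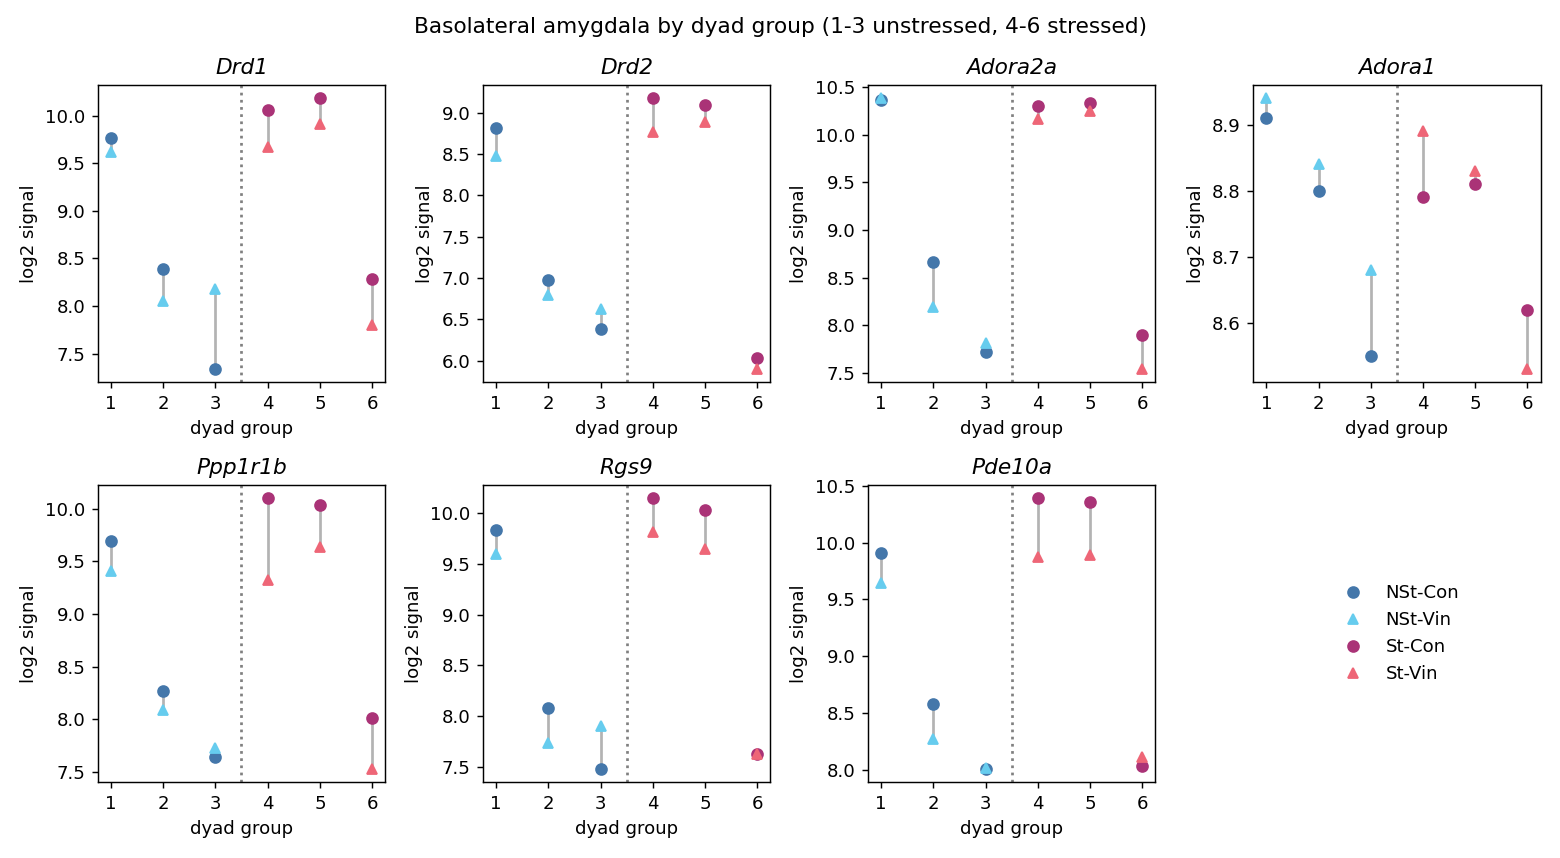
Log2 signal in BLA (vertical axes, own scale per gene) by dyad group; circles are Con and triangles Vin pools, joined by a line, with unstressed groups left and stressed groups right of the dotted line. For 6 genes both pools of groups 1, 4 and 5 lie above every pool of groups 2, 3 and 6, and Adora1 spans only 0.41 in all.

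Drd2 had the widest span. Its Con and Vin levels were 8.81 and 8.47 in dyad group 1, 6.97 and 6.79 in group 2, and 6.38 and 6.62 in group 3. In the stressed groups they were 9.17 and 8.76 in group 4, 9.09 and 8.89 in group 5, and 6.03 and 5.90 in group 6. Thus group 1 stood apart from the other unstressed groups, group 6 from the other stressed ones, and the lineages of each group were close. The means of the unstressed groups spanned 2.14, a 4.41-fold range, and those of the stressed groups 3.03, an 8.14-fold range. The limma F test of dyad groups within a stress condition, against the spread between the lineages of a group, gave F = 288 (adjusted p = 1.38e-06).

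Adora2a behaved likewise, with Con and Vin at 10.4 and 10.4 in group 1, 8.66 and 8.19 in group 2, and 7.72 and 7.81 in group 3. Under stress it had 10.3 and 10.2 in group 4, 10.3 and 10.3 in group 5, and 7.90 and 7.54 in group 6. The 3 high groups were within 0.14 of each other in their means (10.37, 10.23 and 10.29), and the F test gave 259 (adjusted p = 1.96e-06). Drd1 was at 9.77 and 9.62 in group 1, 8.39 and 8.05 in group 2, 10.1 and 9.67 in group 4, 10.2 and 9.91 in group 5, and 8.28 and 7.80 in group 6. Its group 3 was the one clear departure, with 7.34 in the Con and 8.18 in the Vin pool, a difference of 0.84 where the other groups had -0.48 to -0.15. F for Drd1 was accordingly lower, 50.1 (adjusted p = 0.000289).

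The signalling proteins repeated the order. Ppp1r1b means over the lineages were 9.55, 8.18 and 7.69 in groups 1 to 3 and 9.71, 9.84 and 7.77 in groups 4 to 6 (F = 196, adjusted p = 5.18e-06). Rgs9 means were 9.72, 7.91 and 7.69, then 9.99, 9.84 and 7.63 (F = 117, adjusted p = 1.44e-05). Pde10a means were 9.78, 8.43 and 8.02, then 10.1, 10.1 and 8.07 (F = 125, adjusted p = 1.18e-05). In all 3, group 2 lay between group 1 and group 3, so the low groups were not at one level. Folds between the highest and lowest group mean of a stress condition ran from 3.39 to 8.14 over the 6 genes.

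Adora1 followed the groups only weakly, with means of 8.93, 8.82 and 8.62 in groups 1 to 3 and 8.84, 8.82 and 8.58 in groups 4 to 6, a range of at most 1.24-fold. It passed the F test (8.99, adjusted p = 0.0419) but not after quantile normalization (0.138), nor with 11 of the 12 BLA arrays left out 1 at a time (0.0616 to 0.125). All 7 genes therefore passed the F test in BLA, against 6.39% of all probe sets, and 6 of them passed whichever array was left out.

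In the other areas the same pools were compared in the same way. In CRTX 0 of the 7 genes passed (limma F test; 0 at an unadjusted p under 0.05 and 0 with trend and robust settings), where 0% of all probe sets passed. In CA1 1 gene passed, Adora2a (F = 10.4, adjusted p = 0.049), where 4.41% of all probe sets did, and 5 of the 7 genes had an unadjusted p under 0.05 (all but Adora1 and Pde10a). It lost the call when any of 10 of the 11 arrays was left out (adjusted p up to 0.196). Its highest arrays there were NSt-Con 3 at 6.79 and NSt-Vin 3 at 6.50, both of dyad group 3, which had been low in BLA. Rgs9 had its highest CA1 values in the same arrays, 7.61 in both (adjusted p = 0.0554). In CA3 0 genes passed (0 at an unadjusted p under 0.05), where 0.636% of all probe sets did. A fit of all areas tested whether the dyad group differences of BLA differed from the mean of those in the other areas. It passed for 6 genes, where 7.31% of all probe sets passed, with adjusted p from 1.8e-07 for Drd2 to 0.000337 for Drd1. Adora1 did not pass (0.0834).

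CA3 had its own high arrays (plot of CA3 by dyad group). Drd1 was at 9.31 in NSt-Con 2, 8.82 in NSt-Vin 3 and 8.15 in NSt-Con 3, while the other 9 CA3 arrays lay between 7.50 and 7.98. The same 3 arrays were the highest for Drd2 (7.50, 6.86 and the third at 6.40), Adora2a (8.27, 7.62 and 7.31), Ppp1r1b (9.09, 8.60 and 8.41) and Rgs9 (8.94, 8.63 and 8.08). For Pde10a the first 2 were again highest, at 9.65 and 9.27. NSt-Con 2 and its dyad partner NSt-Vin 2 therefore differed by 1.22 to 1.73 for these 6 genes, whereas the lineages of one dyad group had been close in BLA. The F test takes its error from the Con and Vin pools of each dyad group. Leaving out NSt-Vin 2 or NSt-Con 2 removes their difference from that error and leaves dyad group 2 with 1 array. The CA3 F test without either array therefore cannot show whether dyad groups differed, and no conclusion is drawn from it. Both arrays of dyad groups 2 and 3 were in the low set in BLA.

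**Figure D3:**
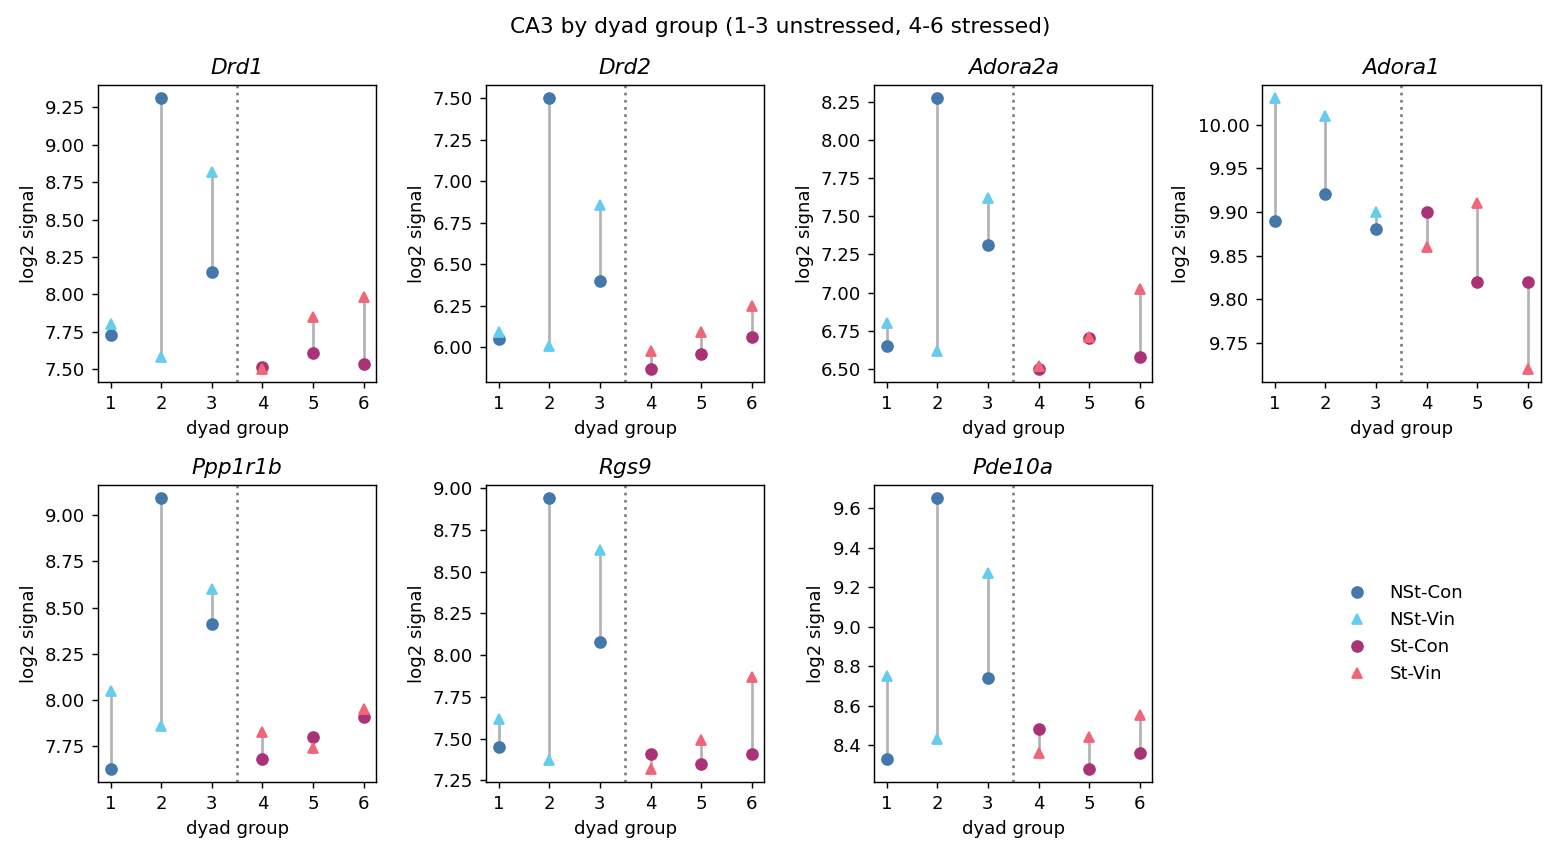
Log2 signal in CA3 (vertical axes, own scale per gene) by dyad group; circles are Con and triangles Vin pools, joined by a line, with unstressed groups left of the dotted line. NSt-Con 2 stands highest for 6 genes, NSt-Vin 3 is second for them, and the Adora1 panel spans only 0.31.

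The same lists were read by dyad group (plot of gene lists). Of 22 medium spiny neuron markers 17 had a probe set, and 15 of these passed the dyad group F test in BLA. The list's mean was 8.34, 7.42 and 7.21 in groups 1 to 3 and 8.46, 8.52 and 7.15 in groups 4 to 6. Tac1, a neuropeptide precursor of the Drd1 cells, had group means of 9.17, 7.46 and 7.25, then 9.59, 9.70 and 6.99 (F = 618, adjusted p = 1.53e-07). Penk, the enkephalin precursor of the Drd2 cells, had 11.08, 9.66 and 8.66, then 11.01, 11.17 and 8.38 (F = 58.7, adjusted p = 0.000183). Markers of both cell classes thus had the same high and low groups. Group 1 was the highest unstressed and group 6 the lowest stressed group for 17 of 17 list members and 7 of 7 genes followed here, an order that 16.5% of all probe sets had. The 7 include Adora1, which followed the groups only weakly. That order is the one the genes followed here showed in BLA, so its counts, here and for the other lists, are a description and no test.

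Of 15 partners in striatal cyclic AMP signalling, 12 passed the F test in BLA. Gnal, the G protein subunit that couples Drd1 and Adora2a receptors to adenylyl cyclase in the striatum, had group means of 10.5, 8.85 and 8.46, then 10.5, 10.7 and 8.23 (F = 307, adjusted p = 1.38e-06). Adcy5, the main striatal adenylyl cyclase, passed as well (F = 111, adjusted p = 1.77e-05). Of the rest of the pathways, 1 of 9 dopamine genes passed (Maob, which breaks down monoamines, adjusted p = 0.043) and 1 of 8 adenosine genes (Adk, which phosphorylates adenosine, 0.00062). The mean of the dopamine list was 6.87 to 6.94 over the dyad groups. That of the adenosine list was 7.51, 7.46 and 7.44 in groups 1 to 3 and 7.50, 7.52 and 7.42 in groups 4 to 6, so groups 1, 4 and 5 were highest here too, over a narrow span. Group 1 was highest and group 6 lowest in their stress condition for 3 of 8 adenosine genes and 1 of 9 dopamine genes.

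**Figure D4:**
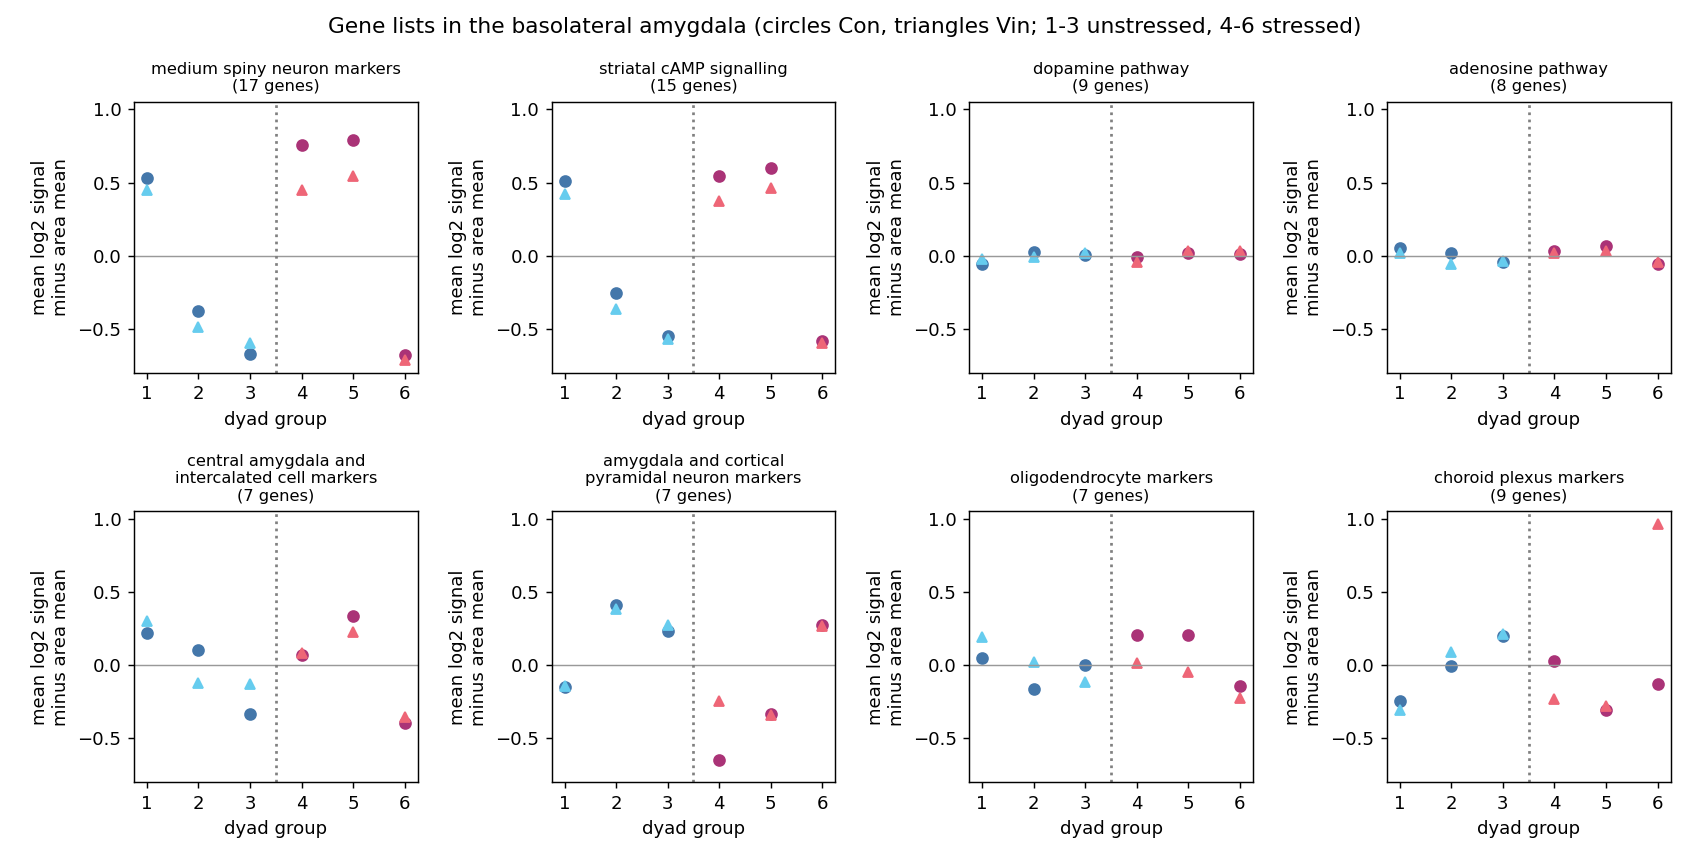
Mean log2 signal of 8 gene lists in BLA minus the mean of the area (vertical axis, 1 scale for all panels) by dyad group; circles are Con and triangles Vin pools, with unstressed groups left of the dotted line. The medium spiny neuron and striatal cAMP lists have groups 1, 4 and 5 above the area mean, the pyramidal neuron list has them below it, and the dopamine and adenosine lists stay within 0.064 of it.

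Markers of some other cell types in the BLA punches also differed between dyad groups, while most genes of several lists did not pass. Of 7 pyramidal neuron markers 6 passed the F test in the opposite order, with list means of 8.44, 8.99 and 8.84 in groups 1 to 3 and 8.14, 8.25 and 8.86 in groups 4 to 6, and 7 of 7 had group 1 lowest and group 6 highest in their stress condition, an order of 20.9% of all probe sets. Slc17a7, the vesicular glutamate transporter of pyramidal cells, was at 10.7, 11.2 and 11.1, then 10.1, 10.3 and 11.1 (F = 12.7, adjusted p = 0.0181). Of 7 markers of the central amygdala and intercalated cells 2 passed, Prkcd and Meis2, and of 3 cholinergic neuron markers 2, Slc5a7 and Slc18a3. Oligodendrocyte markers (1 of 7 passed, Mbp) had list means of 9.31 to 9.61, and 7 of 7 had group 1 highest and group 6 lowest. Choroid plexus markers (0 of 9 passed the limma F test) had means of 6.18 to 6.90, and 9 of 9 had the reverse order. Of the other lists, 1 of 4 astrocyte markers passed (Gfap), 1 of 4 CA1, 2 of 4 CA3 and 0 of 3 dentate gyrus markers. In the CA3 array NSt-Con 3 the choroid plexus list stood 2.70 above the area mean; in NSt-Con 2, the array with the highest striatal markers, it stood 0.24 below it and the medium spiny neuron list 0.54 above it. The part of these cell types in the levels of the 7 genes was not tested.

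For each gene the 3 probe sets most like it over the 12 BLA arrays were listed, as a description. Because the arrays fall into separate sets and dyad partners share their source, the coefficients rest mainly on that split. Drd2 was most like Gnal (r = 0.993), Adora2a like Grm5 (0.996), Ppp1r1b like Strn (0.996), Rgs9 like Scn4b (0.994), Pde10a like Strn (0.997) and Drd1 like Pcp4 (0.982). Adora1 was most like Clock (0.953), a gene outside the lists. Over all 46 arrays Adcy5 was the closest gene for Drd1 (0.979), Drd2 (0.980) and Rgs9 (0.982), and Ube2g2 for Adora1 (0.980), where areas and their scaling are shared.

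In the fit without the dyad group as a block, none of the 7 genes passed for lineage or stress in any area (plot of stress and lineage differences). Of its 28 comparisons, 7 in each of 4 areas, 0 called a member by limma, and the smallest adjusted p was 0.116. With the block 1 value passed, that of Drd1 in CA1 between the lineages under stress, given with its scan days further on. Over all probe sets, 0.636% passed for St minus NSt in Con in CRTX, 0.00731% for its average over the lineages there and 0.505% for St minus NSt in Vin in CA1, and 0% in the other comparisons. In BLA 0% of all probe sets passed in each of the 7 comparisons; at an unadjusted p under 0.05, 0 members and between 331 and 1130 probe sets did.

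**Figure D5:**
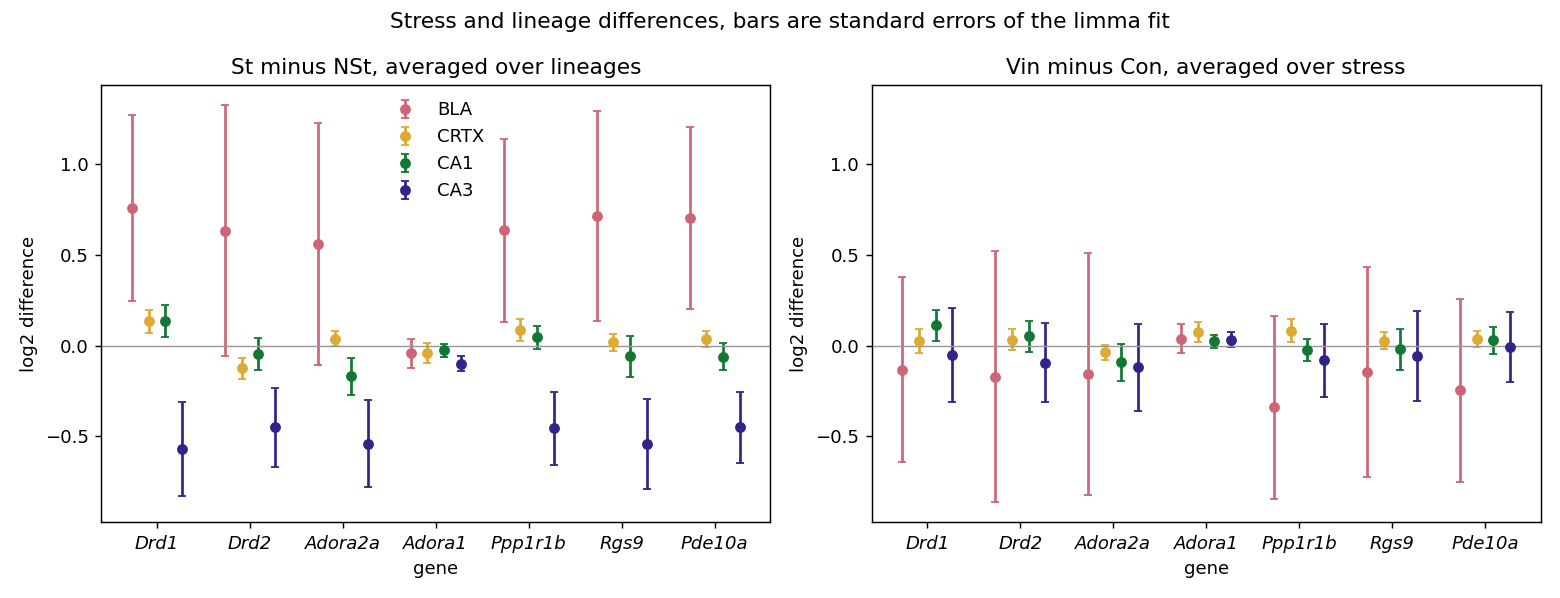
Log2 differences of the 7 genes in 4 areas, stressed minus unstressed (left) and Vin minus Con (right), each averaged over the other factor. Points are limma estimates and bars their SE, from the fit that takes the pools of a dyad group as separate arrays. BLA estimates of stress lie above 0 for 6 genes and CA3 estimates below 0, none past the threshold, and BLA bars are the widest.

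In BLA the stressed minus unstressed average was 0.76 ± 0.51 (SE) for Drd1, 0.63 ± 0.69 for Drd2 and 0.56 ± 0.67 for Adora2a. It was 0.64 ± 0.50 for Ppp1r1b, 0.71 ± 0.58 for Rgs9, 0.70 ± 0.50 for Pde10a and -0.042 ± 0.081 for Adora1, all with an adjusted p of 0.996. These SE take the Con and Vin pools of a dyad group as separate arrays, although both share the stress condition. For the genes other than Adora1 these pools were close, so the SE understate the uncertainty of the stress difference. Stressed and unstressed arrays overlapped over most of their range, since each condition held high and low dyad groups. With 1 array left out, the Drd1 value ran from 0.47 to 1.09.

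The Vin minus Con average in BLA was negative for 6 genes, from -0.34 ± 0.50 for Ppp1r1b to -0.13 ± 0.51 for Drd1, and 0.038 ± 0.081 for Adora1 (adjusted p = 0.997 each). With the dyad group as a block, which uses the cage-mate pools, the SE shrank and 0 genes passed. Ppp1r1b was then -0.34 ± 0.062 (unadjusted p = 0.00028, adjusted p = 0.196), with the Vin pool lower in 5 of 6 dyad groups, by 0.18 to 0.78, and 0.09 higher in group 3. Its Vin minus Con value was -0.55 ± 0.088 in the stressed groups (limma adjusted p = 0.446) and -0.12 ± 0.088 in the unstressed ones (0.991). The interaction of lineage and stress was -0.43 ± 0.124 (limma unadjusted p = 0.00611, adjusted p = 0.997). Pde10a was -0.25 ± 0.078 (adjusted p = 0.492), lower in 4 of 6, and Drd2 -0.17 ± 0.071 (0.655), lower in 5 of 6. These small differences between cage mates are thus stated as values only.

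In CA3 the stressed minus unstressed average was negative for all 7 genes: -0.57 ± 0.26 (SE) for Drd1, -0.45 ± 0.22 for Drd2, -0.54 ± 0.24 for Adora2a, -0.46 ± 0.20 for Ppp1r1b, -0.54 ± 0.25 for Rgs9, -0.45 ± 0.19 for Pde10a and -0.10 ± 0.041 for Adora1. Unadjusted p ran from 0.0307 to 0.0596 and adjusted p from 0.46 to 0.485, and 0% of all probe sets passed. The unstressed groups held the 3 high arrays: Drd1 was 8.40 ± 0.82 (SD, n = 3) in NSt-Con and 8.07 ± 0.66 (n = 3) in NSt-Vin, against 7.55 ± 0.053 (n = 3) in St-Con and 7.78 ± 0.25 (n = 3) in St-Vin. Without NSt-Con 2 the Drd1 difference was -0.34, and the values of Drd2, Adora2a, Ppp1r1b, Rgs9 and Pde10a were -0.24 to -0.34.

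In CRTX and CA1 the genes differed little between conditions. Drd2 in CRTX was lower by 0.25 ± 0.077 (SE) in St-Con than in NSt-Con, at 5.27, 5.47 and 5.27 against 5.53, 5.73 and 5.51, without overlap (limma adjusted p = 0.116; 0.636% of all probe sets passed), and all St-Con arrays of CRTX were scanned on another day than the NSt-Con arrays. Drd1 in CA1 was at 7.93, 7.91 and 7.57 in St-Vin, against 7.51 and 7.53 in the 2 St-Con arrays used. With the dyad group as a block, this difference was 0.40 ± 0.077 and passed (limma adjusted p = 0.0487, resting on dyad groups 4 and 5), where 347 probe sets did, 1.27% of all. It did not pass without the block (0.28 ± 0.13, 0.979), where 0% of all probe sets did. The St-Vin arrays had another scan day than these St-Con arrays, and its effect cannot be told apart from that of lineage.

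The stress and lineage averages were also tested for a difference between areas. No gene passed for lineage (limma F test; 0 at an unadjusted p under 0.05, adjusted p = 1 for all 7, 0% of all probe sets). None passed for stress (0 at an unadjusted p under 0.05, adjusted p from 0.316 for Drd1 to 0.897 for Adora1), where 0.907% of all probe sets did. This F test took all areas together, and the stress difference of BLA was not tested against that of CA3 alone. The opposite signs of the stress estimates in BLA and CA3 are therefore not shown to differ.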

How the data were processed

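The authors deposited log2 expression values of 48 one-colour whole-transcript arrays; per the submitters' processing notes Partek and RMA were used, whose versions are not given in the sources used. Per the labels, each array took RNA pooled from 4 rats, and the dyad group of cage mates links the Con and Vin pools. The platform annotation gave 15097 of 27342 probe sets 1 symbol, 323 several and 11922 none, and 15067 matched RefSeq (GRCr8) by gene number.

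An array was left out if it equalled the mean of the other arrays of its group within 0.0051 on every probe set; 2 were. Values were used as deposited. limma 3.58.1 (R 4.3.3, statmod 1.5.0) fitted group means, with the pool as a random block between areas (correlation 0.0487). Adjusted p-values are two-sided Benjamini-Hochberg values over all probe sets, threshold 0.05; SE come from the fit and SD from arrays. The fits were run on simulated data with independent arrays and without the pool block, so correlation between pools was not covered. Pairing by dyad group comes from the labels; same-group pools correlated above 0.1 in 6 of 6 pairs in BLA, 3 of 5 in CRTX, 5 of 5 in CA1 and 5 of 6 in CA3.

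The members, gene lists and tests were chosen with earlier results of these data known. Named genes are the 7 members, up to 6 list genes past a test per list and comparison, and the 3 most similar probe sets. Alternatives were all 48 arrays, quantile normalization, equal array medians, no probe sets below the 30th percentile, no pool block, trend and robust settings, the replicate block, scan day, each array or pool left out, and, chosen after seeing the data, each BLA dyad group left out, fits of 2 areas only, the shared scan day with the same groups, the dyad group test between areas, and the exact sign-flip test.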

Additional observations from a re-analysis of the deposited data

Results flagged for a closer look

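The dyad group differences of 6 genes in the basolateral amygdala differed from the mean of those in the other 3 areas, by a limma F test of the difference in a fit of all arrays that was chosen after seeing the data. The adjusted p was 0.000337 for Drd1, 1.8e-07 for Drd2, 3.3e-07 for Adora2a, 2.12e-06 for Ppp1r1b, 8.02e-06 for Rgs9 and 1.01e-05 for Pde10a. In BLA the 4 pools of dyad groups 4 and 5 were high and the 2 of group 6 low, while in CRTX the Drd2 group means of the same pools were 5.40, 5.52 and 5.34. Groups of 2 or 3 arrays were too small for a test of single outlying arrays.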

How the results depend on the processing

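Of 697 counts of called members under an alternative, 662 stayed within 1.5 times the main count. These include counts of 0 that stayed 0, and all 28 comparisons within areas had a main count of 0. The CA1 dyad group count, 1 as reported, changed whichever array was left out. Among 2394 values of single members, 3 changed sign and also passed as reported or under the alternative. Ppp1r1b between CRTX and CA3 changed to 0.016 with quantile normalization and to 0.019 with equal array medians. Adora1 between CRTX and CA1 changed to 0.012 with equal array medians. Sign changes of values that passed in neither setting were not counted. An example was the Vin minus Con average of Drd2 in BLA, which ran from -0.69 to 0.32 with 1 array left out. With quantile normalization and equal array medians the members called were 0 and 0 for CRTX minus CA1 (2 as reported), 1 and 2 for CRTX minus CA3 (6), and 1 and 1 for CA1 minus CA3 (2). Without the pool block, and with trend and robust settings, CA1 minus CA3 had 1 each. With only the 2 areas compared, CRTX minus CA1 had 6 and CA1 minus CA3 had 6. The CA1 dyad group test called 0 members with all 48 arrays and 2 each with quantile normalization, the low-value filter, or trend and robust settings. The replicate block called 1 member in CA1 for Vin minus Con under stress, and 0 in the other comparisons within areas. With 1 array or pool left out, counts ran from 6 to 7 for BLA dyad groups, 0 to 2 for CA1 dyad groups, 0 to 6 for CA3 dyad groups, 6 to 7 for BLA minus CA3, 1 to 3 for CA1 minus CA3 and 4 to 7 for CRTX minus CA3. The CA3 dyad group count rose above 0 only without NSt-Vin 2 or NSt-Con 2, which removes their difference from the error of the test. It is not read as a difference between dyad groups. Scan day as a block could not be fitted in CA1 with 46 arrays and was not run there. The causes were not tested, apart from fewer arrays or genes by construction; the number of arrays limits the precision.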
